A study of Arabidopsis thaliana with 24 samples.

Results

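The embryo proper of hybrid Arabidopsis embryos was compared between reciprocal crosses, Col mother with Ler father against Ler mother with Col father. All libraries labelled embryo proper were taken, 3 from each direction of the cross, so that 6 of the 24 RNA-seq libraries of the series entered the comparison. The embryos were at the 32-celled stage and came from plants grown in a greenhouse under long days. Every embryo in both groups is a first-generation hybrid that carries 1 Col genome and 1 Ler genome. The groups therefore share their nuclear genotype, and differ in which accession was the mother, that is, in the parent of origin of each genome, in the maternal plant and seed tissues around the embryo and in the maternal cytoplasm. The other 18 libraries hold the apical and basal daughter cells of the zygote and the suspensor of the same crosses, and are used below only beside the embryo proper.

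The embryo proper descends from the apical daughter of the zygote and forms nearly the whole seedling, while the suspensor joins it to the maternal tissue. A reciprocal cross separates the parents' contributions: a gene whose level depends on a maternal or paternal product, or of which only one parental copy is read, can differ between the directions although the genotype is the same. Genomic imprinting in flowering plants is known mainly from the endosperm, the nourishing tissue beside the embryo. The series asked how the parents contribute to the transcriptomes of the apical and basal lineages.

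The values are FPKM (fragments scaled to transcript length and to the size of the library), which the authors computed for every gene. The summed FPKM of the 6 libraries lay between 1003724.4 and 1070021.8, between 14284 and 15217 loci reached an FPKM of 1, and the 10 most abundant loci held 6.15 to 6.73% of the sum. Read depth is unknown, because low values showed no common step from which whole fragments could be read. The labelled tissue carried its markers: all 12 embryo proper markers were detected, with the epidermal gene PDF1 between 3728.74 and 5199.27 and the apical lineage homeobox gene WOX2 between 75.1 and 104. Of 4 suspensor markers, WOX8 stayed at or below 1.38 in every library. The other 3 were high enough to test. Among them, WOX9 (listed as HB-3), a relative of WOX8, stood between 74.9 and 119, and PIN7 between 1.07 and 6.33. Of 17 endosperm markers 6 were at 0 in all 6 libraries. The summed FPKM of the 17 was 16.8, 5.1 and 5.65 with a Col mother and 8, 2.66 and 7.96 with a Ler mother. Col-mother replicate 1 was the highest, with AT1G10745 alone at 12.48. Of 19 seed coat markers 5 were at 0 in all 6 libraries, and 2, MUM4 and STK, were high enough to test. The labels do not say which plants each library came from, so the p-values measure the spread between these libraries. In bulk tissue, fewer cells of a type and less RNA per cell cannot be told apart.

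No gene was called different between the crosses at the threshold set. Testing was limited to the 15011 loci that reached an FPKM of 1 in 3 or more of the 6 libraries. Of these limma called 0 (0% called) at a Benjamini-Hochberg adjusted p of 0.05, and 411 (2.74%) had an unadjusted p under 0.05. That share is below the fraction of 0.05 which such a threshold passes on average where no gene differs. Weighting the libraries by their spread gave 2 calls, HTA13 and HTA6, which are described below. In that fit Ler-mother replicates 1, 2 and 3 had weights of 3.8, 0.871 and 0.548. Those of Col-mother replicates 1, 2 and 3 were 0.794, 0.388 and 1.79, so the libraries counted very unequally. Of these 411, 241 (1.61% of the tested genes) were higher with a Col mother and 170 (1.13%) with a Ler mother. All 3 Col-mother libraries lay above all 3 Ler-mother libraries in 640 genes (4.26%), and the reverse held in 502 genes (3.34%). Differences were small: the median absolute log2 difference was 0.152, and 185 genes (1.23%) differed by a log2 of at least 1. Differences are on the log2(FPKM + 1) scale, Col mother minus Ler mother, and this scale understates the change of genes with low FPKM.

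The interval of each gene, not adjusted over the tested genes, says how large a difference its values allow. It does not give the size of difference that would have been called. The 95% interval of the difference lay within a 2-fold change either way for 11307 genes, 75.3% of those tested. This share was 54.6% among genes with a mean FPKM under 10 in the higher cross, 87.5% between 10 and 100, and 93.1% at 100 and above. From the difference to either end, the interval spanned a median log2 of 0.563 over all genes and 0.288 at an FPKM of 100 and above. The libraries themselves did not sort by cross. None of the 5 principal components separated the 2 groups, and Pearson correlations of log2 values ran from 0.9481 to 0.977 within a cross and from 0.9485 to 0.9714 between crosses. Col-mother replicate 2 lay at one end of the first component, which held 38.7% of the variance, and Col-mother replicate 1 at the other.

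Although no single gene was called, the 10 genes with the lowest p among those with a mean FPKM of at least 10 were all core histone genes, and all 10 were higher with a Col mother. Histones package DNA into nucleosomes. The canonical H2A, H2B, H3.1 and H4 forms are made mainly during DNA replication, H2A.W marks silent chromatin, and H3.3 and H2A.Z are exchanged outside replication. The family was chosen after these values had been seen, so what follows describes it and carries no test of the family. The list holds 44 core histone loci and 1 linker histone locus, HIS1-3, and 40 of the 45 were high enough to test. Of the other 5, HTA4 and AT1G08170 were at 0 in all 6 libraries, and HIS1-3, AT5G12910 and AT1G13370 reached an FPKM of 1 in fewer than 3.

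The strongest single case was HTA6, an H2A.W gene. Its FPKM was 712, 588 and 549 in the Col-mother libraries and 297, 291 and 337 in the Ler-mother libraries. The groups were far apart, with the lowest Col-mother library well above the highest Ler-mother library. The means were 617 ± 85.1 and 308 ± 25.2 (SD, n = 3 each). On the log2 scale the crosses differed by 0.99 (SE 0.12, limma adjusted p = 0.367). HTA13, a canonical H2A gene, read 437, 347 and 396 with a Col mother and 215, 214 and 225 with a Ler mother. These groups did not overlap either, and the Ler-mother libraries were nearly alike (log2 0.84, SE 0.11, limma adjusted p = 0.367). AT5G10400, 1 of the 5 H3.1 genes, read 1355.27, 1039.52 and 943 with a Col mother and 506, 547 and 635 with a Ler mother. Again every Col-mother value lay above every Ler-mother value (log2 0.97, SE 0.15, limma adjusted p = 0.51). The H2B gene HTB2 read 1144.21, 884 and 884 against 614, 616 and 626, also without overlap (log2 0.64, SE 0.12, limma adjusted p = 0.987).

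The whole family leaned the same way. All 40 tested histone genes had a positive log2 difference, from 0.15 to 1.2 with a median of 0.65, while the median over all tested genes was -0.01. In 28 of the 40 the libraries did not overlap, with Col mother above, against 4.26% of all tested genes, and 31 had an unadjusted p under 0.05, against 1.61% in that direction. All 40 genes were read in the same 6 libraries, so they are not 40 separate observations. Summed over the 45 loci, histone FPKM was 30148.2, 21555.8 and 22142.8 with a Col mother and 16526, 15070.8 and 17346.5 with a Ler mother. The lowest Col-mother sum exceeded the highest Ler-mother sum, and the ratio of the means was 1.51. Many histone genes are near copies (the 5 H3.1 genes code for identical proteins), so how reads were divided among copies is uncertain. FPKM is scaled to transcript length, so the sum can also shift with that division where copies differ in length. How far it did was not tested.

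**Figure D1:**
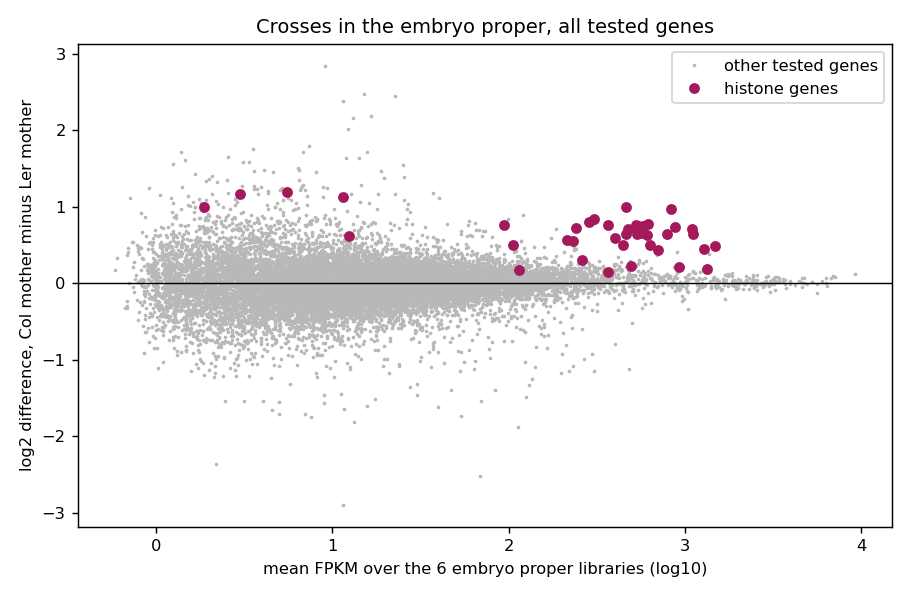
Log2 difference between the crosses (vertical axis, Col mother minus Ler mother, log2(FPKM + 1) scale) against the mean FPKM over the 6 embryo proper libraries (horizontal axis, log10) for each of the 15011 tested genes (grey) and the 40 tested histone genes (purple). The purple points all lie above 0, between 0.15 and 1.2, and none of the plotted genes was called.

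Classes within the family differed in the size of the difference. Their counts without overlap, all with Col mother above, are to be read against 4.26% of all tested genes. H2A.W genes had a median log2 difference of 0.99 (3 of 3 without overlap), H3.1 genes 0.76 (4 of 5), canonical H2A genes 0.73 (3 of 4), H4 genes 0.69 (6 of 8) and H2B genes 0.63 (7 of 10). H2A.X genes, which mark DNA damage, had a median of 0.48 (1 of 2), H2A.Z genes 0.21 (2 of 3) and H3.3 genes 0.22 (1 of 3). AT1G75600, an H3 gene outside these classes with an FPKM of at most 3.57, differed by a log2 of 1.00 without overlap, so the classes do not fall into 2 clean sets. HTR12, the centromeric H3, read 125, 118 and 124 with a Col mother and 101, 104 and 120 with a Ler mother. Here the groups overlapped (log2 0.18, 95% interval -0.09 to 0.45). The summed level of the H3.1 genes was 1.73 times as high with a Col mother, that of the H3.3 genes 1.25 times with overlapping libraries. The difference between classes was not tested.

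**Figure D2:**
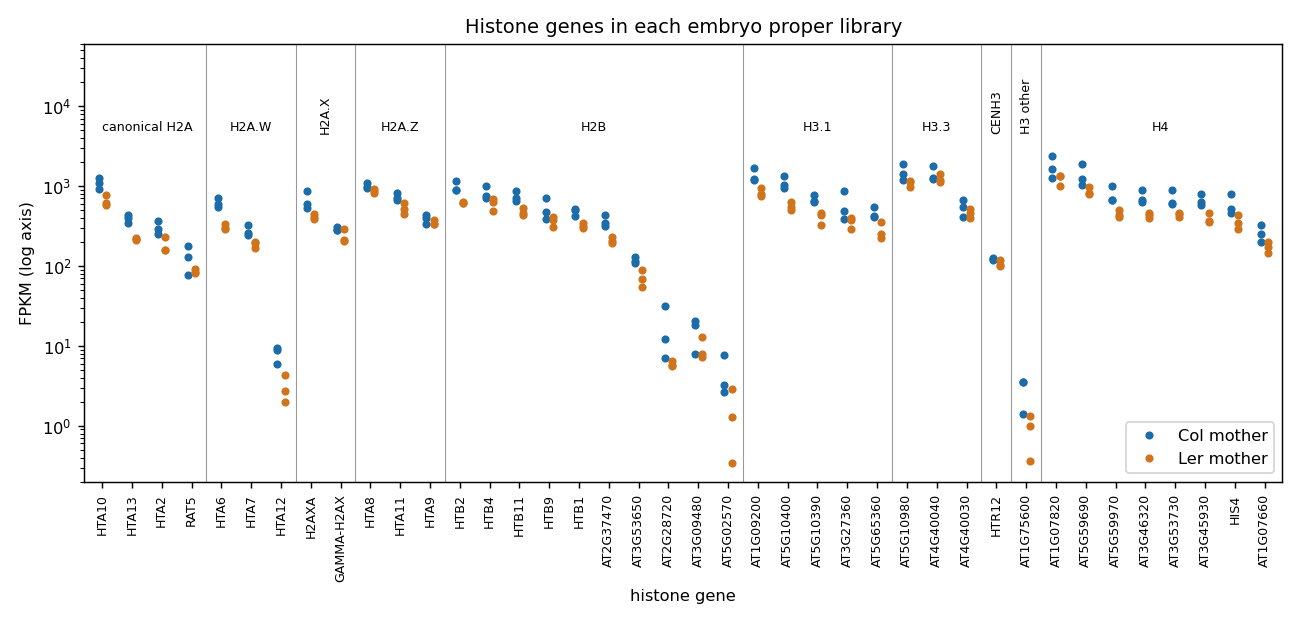
FPKM (log axis) of the 40 tested histone genes in each of the 6 embryo proper libraries, grouped by histone class, with Col-mother libraries in blue and Ler-mother libraries in orange. In 28 genes the 3 blue points lie above the 3 orange points, and in none do the orange points lie above the blue.

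Other genes that act in replication had values on both sides of 0. The cell cycle and DNA replication list held 40 genes, of which 38 were tested, 11 were higher in mean with a Col mother, and the median log2 difference was -0.12. In 2 of them, CYCD4;1 and E2F1, all Col-mother libraries were above, and in 1, the licensing gene CDT1A, all Ler-mother libraries were above, close to the 4.26 and 3.34% of all tested genes. MCM2, a subunit of the replicative helicase, read 45.6, 81.7 and 67.1 with a Col mother and 65.5, 87.4 and 44.2 with a Ler mother. The groups overlapped fully (log2 -0.01, 95% interval -0.64 to 0.63). PCNA1, the sliding clamp of DNA polymerase, read 262, 393 and 284 against 296, 302 and 327. It too overlapped, and its interval of -0.35 to 0.35 lies below the histone median. CDC20.1, an activator of the anaphase-promoting complex, read 226, 105 and 271 against 263, 241 and 256, with Col-mother replicate 2 the lowest. MSI1, a subunit of the assembly factor that loads histones onto new DNA, read 88.5, 106 and 96.6 against 106, 124 and 92, with overlap. Of 34 DNA methylation and chromatin genes 32 were tested, none separated the crosses, and their median was 0. Leaving out Col-mother replicate 3, Ler-mother libraries lay above in 14 of the 38 replication genes (10.2% of all genes), with a median of -0.17. Leaving out Ler-mother replicate 3, they lay above in 8 of the 32 chromatin genes (12.5% of all genes), with a median of -0.14.

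Some genes of other chromatin proteins lay among the listed histones in the order of p that put 10 histones first. HMGA stood at rank 11 and AT1G06760 at rank 13, with AT1G65370 between them and further listed histones from rank 14 on. AT2G30620 was not among the first 50, and is given as a relative of AT1G06760. Of the 32 tested genes of the DNA methylation and chromatin list 0 separated the crosses, as given above. HMGA, a chromatin protein that binds AT-rich DNA, read 233, 211 and 186 with a Col mother and 133, 132 and 149 with a Ler mother. Its groups did not overlap (log2 0.60, SE 0.12, limma adjusted p = 0.987). AT1G06760 and AT2G30620 are known as linker histone H1 genes but are annotated in RefSeq as winged-helix DNA-binding proteins, and so were not on the histone list. Over the longer sequence, their coded proteins share 28.1 and 36.6% of residues with that of HIS1-3. AT1G06760 read 506, 336 and 341 against 227, 212 and 235, without overlap (log2 0.78, SE 0.16, limma adjusted p = 0.987). AT2G30620 read 182, 115 and 132 against 112, 99.9 and 95.1, and its groups separated by little (log2 0.46, SE 0.17, limma adjusted p = 1).

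Histone transcripts are short, and the short genes of these libraries leaned slightly the same way. The longest annotated transcripts of the tested histone genes ran from 522 to 1463 bases. Among other genes the median log2 difference was 0.09 for transcripts of 500 to 750 bases and -0.05 for those of 2000 bases or more. There were 947 other genes within the histone range of length and GC content and with a mean FPKM of at least 100. Their median log2 difference was 0.05, and Col-mother libraries lay above in 67 of them (7.07%) and Ler-mother libraries in 12. By length alone, other genes at this level had Col mother above in 13.4% at 500 to 750 bases, a range that holds 13 tested histone genes. The share was 5.04% at 750 to 1000 bases and 5.15% at 1000 to 2000. The part of transcript length in the histone difference was not tested.

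In each of 17 alternative fits the histone median was positive. It ranged from 0.50, without Col-mother replicate 1, to 0.78, without Col-mother replicate 2. Every tested histone gene was higher in mean with a Col mother in 15 of these fits, and 42 of 43 were without a filter on low values and with all 24 libraries in the fit. The number with an unadjusted p under 0.05 ranged from 1, with all 24 libraries, to 36, with library weights. With any 1 library left out, 29 to 36 of the 40 genes had no overlap with Col mother above, against 7.25 to 14.3% of all tested genes. The 36 were found without Col-mother replicate 2, where the share of all tested genes was 14.3%. Without Col-mother replicate 1, the library with the highest histone sum, 29 genes separated, against 7.25% of all tested genes.

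The promoters of these genes can be set beside their values. RefSeq's TAIR10.1 genome was searched over the 250 bases before each annotated gene start for the histone octamer CGCGGATC and the hexamer ACGTCA, motifs known from plant histone promoters, on both strands (matches to one cannot overlap matches to the other). The octamer was in 9 of 40 tested histone promoters (22.5%) and in 0.101% of the promoters of other tested genes. The hexamer was in 11 of the 40 (27.5%) and in 7.88% of the others. Histone genes with the octamer had a median log2 difference of 0.74 (n = 9) and those without it 0.64 (n = 31). With and without the hexamer the median was 0.65 (n = 11 and 29). By class, the octamer was in 2 of 4 canonical H2A, 1 of 3 H2A.W, 3 of 5 H3.1, 2 of 8 H4, 1 of 3 H3.3 and 0 of 10 H2B promoters. The hexamer was in 8 of 10 H2B, 2 of 5 H3.1 and 1 of 3 H3.3 promoters. How either motif relates to the log2 differences was not tested. Shown are the promoters of the 3 replication-linked or heterochromatic genes with the lowest p, HTA6, HTA13 and AT5G10400, and beside them that of the H3.3 gene AT5G10980 (1 of the other H3.3 genes does hold the octamer), with motif matches in capitals.
HTA6 (chr5:24116221-24116470, minus strand): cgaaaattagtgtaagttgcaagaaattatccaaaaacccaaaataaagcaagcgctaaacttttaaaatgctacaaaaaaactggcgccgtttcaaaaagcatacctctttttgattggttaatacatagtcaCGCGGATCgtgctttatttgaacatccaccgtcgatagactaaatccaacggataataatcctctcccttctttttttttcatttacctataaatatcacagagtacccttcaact
HTA13 (chr3:7229140-7229389, plus strand): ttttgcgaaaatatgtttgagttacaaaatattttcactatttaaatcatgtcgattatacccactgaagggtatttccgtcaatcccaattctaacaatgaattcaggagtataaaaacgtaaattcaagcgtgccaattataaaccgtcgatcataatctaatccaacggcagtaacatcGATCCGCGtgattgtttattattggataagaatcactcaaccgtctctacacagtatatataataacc
AT5G10400 (chr5:3270958-3271207, minus strand): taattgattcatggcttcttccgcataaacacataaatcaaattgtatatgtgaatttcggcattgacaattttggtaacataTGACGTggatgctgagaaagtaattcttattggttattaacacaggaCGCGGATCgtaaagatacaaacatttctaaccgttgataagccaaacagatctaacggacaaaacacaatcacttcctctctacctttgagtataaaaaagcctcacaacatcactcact
AT5G10980 (chr5:3473571-3473820, minus strand): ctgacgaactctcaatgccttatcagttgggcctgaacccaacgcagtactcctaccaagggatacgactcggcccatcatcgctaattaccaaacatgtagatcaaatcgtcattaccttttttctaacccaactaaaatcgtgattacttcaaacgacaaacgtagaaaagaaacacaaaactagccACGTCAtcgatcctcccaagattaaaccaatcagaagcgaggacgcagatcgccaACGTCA
The first 3 each hold 1 octamer, on the second strand in HTA13, and AT5G10400 also holds 1 hexamer. AT5G10980 holds 2 hexamers and no octamer. AT5G10980 read 1878.73, 1189.20 and 1406.45 with a Col mother and 1147.67, 970 and 1109.02 with a Ler mother. Its groups only just separated (log2 0.45, SE 0.16, limma adjusted p = 1).

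The histone genes were set beside the same genes in the other cell types of the crosses. As a share of summed FPKM, histones took 2.05 to 2.82% of the embryo proper libraries with a Col mother and 1.5 to 1.62% with a Ler mother. In the apical cell, from which the embryo proper descends, the ranges were 1.05 to 2.62% and 1.49 to 2.41%, and overlapped. There, 6 of 39 tested histone genes were higher in mean with a Col mother, with a median log2 difference of -0.20. All Col-mother libraries were above in 1 of them (5.67% of all genes tested there) and all Ler-mother libraries in 1 (10.3%). In the basal cell all Col-mother libraries were above in 0 of 39 (15%) and all Ler-mother libraries in 12 (11.9%), with a median of -0.38. The basal cell was the only cell type in which limma called histone genes, 3, all higher with a Ler mother (3.04% of all genes called there). In the suspensor of the same embryo stage 36 of 40 were higher in mean with a Col mother, with a median of 1.14, and in 12 of them the libraries did not overlap (7.17% of all genes tested there). The suspensor and embryo proper libraries are labelled as the same stage and crosses, but the labels do not say whether they came from the same embryos. In the direct test of the difference between embryo proper and apical cell, limma called 0 of 40 histone genes (lowest adjusted p = 0.202). Of the 40, 8 had an unadjusted p under 0.05, against 9.15% of all genes. The cross difference was more positive in the embryo proper in 39 of the 40, with a median log2 of 0.8 (0.08 over all genes). Against the suspensor limma also called 0, of 42 (lowest adjusted p = 0.498, 4 with an unadjusted p under 0.05 against 7.39%). The cross difference was more positive in the embryo proper in 11 of these 42, with a median log2 of -0.49 (-0.02 over all genes).

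**Figure D3:**
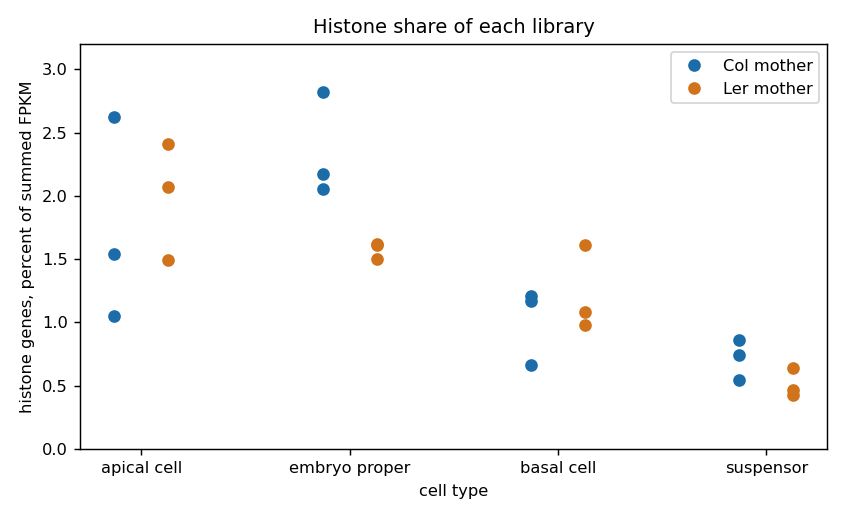
Share of summed FPKM held by the 45 histone loci (vertical axis, percent) in each of the 24 libraries, by cell type, with Col-mother libraries in blue and Ler-mother libraries in orange. The crosses separate in the embryo proper, at 2.05 to 2.82% against 1.5 to 1.62%, and overlap in the apical cell, basal cell and suspensor.

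Nuclear genes of photosynthesis were also mostly higher in mean with a Col mother. Their proteins form the light-harvesting antennae, the photosystems and Rubisco of the chloroplast. Summed over 29 genes, FPKM was 254, 131 and 114 with a Col mother and 77.9, 47.7 and 90.08 with a Ler mother. The sums did not overlap, and the ratio of the means was 2.31. Of the 29 genes 17 were tested, 0 were called, 15 had a positive log2 difference, and the median was 0.83. In 6 of the 17 all Col-mother libraries were above (4.26% of all tested genes), and in 0 all Ler-mother libraries were.

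RBCS1A, a small subunit gene of Rubisco, read 67.9, 14.5 and 33.7 with a Col mother and 9.22, 1.1 and 9.5 with a Ler mother. The groups did not overlap, though the Col-mother libraries spread widely (log2 2.45, SE 0.70, limma adjusted p = 1). PSAE-1, a photosystem I subunit, read 3.47, 3.34 and 1.37 against 0.34, 0 and 0.21, also without overlap (log2 1.61, SE 0.36, limma adjusted p = 1). LHCA1, an antenna protein of photosystem I, read 33.4, 16.7 and 14.7 against 13.6, 10.4 and 10.4. Its groups separated by little, with Col-mother replicate 1 the highest (log2 0.78, SE 0.30, limma adjusted p = 1). HEMA1 and GUN5, enzymes of chlorophyll precursor synthesis, went the other way without separating the groups (log2 -0.16 and -0.38). Without Ler-mother replicate 3, 12 of the 17 genes had Col mother above, against 9.97% of all genes. Without Col-mother replicate 1, 7 had Col mother above and 2 had Ler mother above, against 7.25 and 8.49% of all genes.

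Heat shock and protein folding genes differed widely between libraries of the same cross. These genes encode chaperones, which refold damaged proteins, and the heat shock factors that switch them on. HSP101, the disaggregating chaperone, read 24.04, 12.2 and 10.4 with a Col mother and 122, 146 and 6.62 with a Ler mother. Ler-mother replicates 1 and 2 were high, and replicate 3 was the lowest of the 6 libraries (log2 -1.73, 95% interval -3.97 to 0.51, limma adjusted p = 1). HSP17.4, a small heat shock protein, read 52.2, 242 and 66.6 against 721, 736 and 16.6, with the same replicate apart. Summed over 23 genes, FPKM was 2826.4, 4505.8 and 2639.1 with a Col mother and 6855.6, 7797 and 2413.8 with a Ler mother. The list's most abundant members were less variable: HSC70-1 read 978, 1508.88 and 938 against 1130.63, 1433.20 and 1047.36, and HSP81-2 read 489, 534 and 454 against 580, 586 and 426, both with overlap. Of 22 tested genes 0 separated the crosses, and the median log2 difference was -0.61.

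The list's difference therefore rested on which Ler-mother libraries were used. Without Ler-mother replicate 3, all remaining Ler-mother libraries were above in 19 of the 22 genes (12.5% of all tested genes), with a median of -2.01. In that fit limma called 5 genes over the whole table, all lower with a Col mother: HSP101, CLPB3 and CLPB4 of the same chaperone family, the co-chaperone gene Fes1A, and AT4G14270, annotated as a polyadenylate-binding protein interacting protein. Without Ler-mother replicate 2 the median was -0.07, and without Ler-mother replicate 1 it was -0.16. The same was asked of the histones: without Ler-mother replicate 3, 31 of the 40 histone genes had Col mother above (9.97% of all tested genes), with a median of 0.69.

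**Figure D4:**
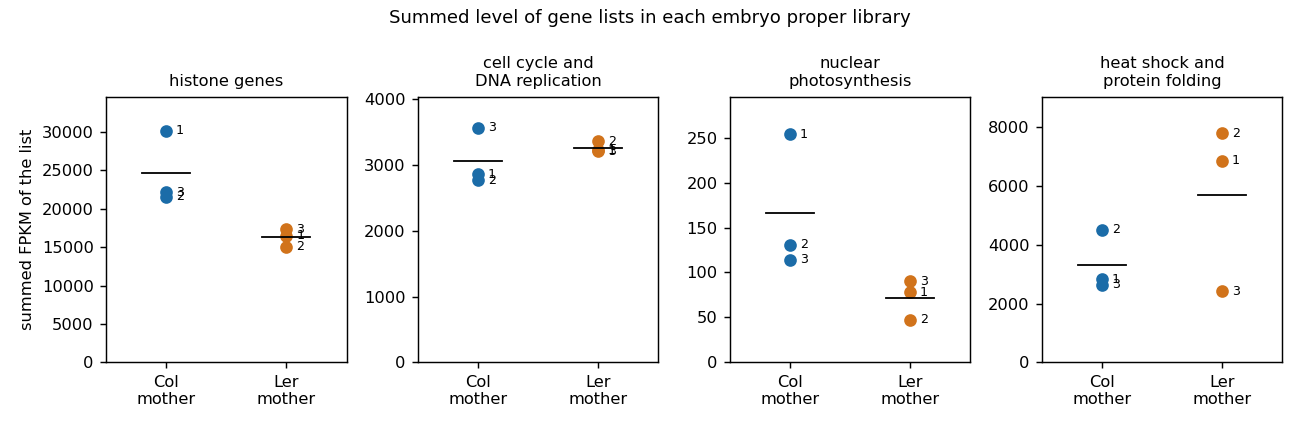
Summed FPKM (vertical axis from 0, own scale in each panel) of 4 gene lists in each embryo proper library, with replicate numbers beside the points and the group mean as a line. Histone and photosynthesis sums do not overlap between the crosses, cell cycle sums overlap, and in the heat shock panel Ler-mother replicate 3, at 2413.8, lies with the Col-mother libraries.

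Among embryo regulators, members separated the crosses about as often as genes at large (4.26% with Col mother and 3.34% with Ler mother above). Of the 12 embryo proper markers 1, the organ boundary gene CUC2, had all Col-mother libraries above: it read 19.5, 20.1 and 16.4 against 12.3, 8.74 and 15.9 (log2 0.60, SE 0.24, limma adjusted p = 1). WOX2 read 75.1, 101 and 78.1 with a Col mother and 84.5, 85.1 and 104 with a Ler mother. Its groups overlapped (log2 -0.11, 95% interval -0.47 to 0.25). Of 20 tested auxin genes 1, the auxin efflux carrier gene PIN4, had Col mother above, and the list median was 0.01. Of 18 tested epidermis and cuticle genes 0 separated, with a median of -0.03.

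Genes that might differ by parent gave few values. Of 18 genes known to be imprinted in endosperm 2 were tested, NRPD1A, the largest subunit of RNA polymerase IV, and AT4G11400, and 6 were at 0 in all 6 libraries. NRPD1A read 1.5, 1.07 and 1.36 with a Col mother and 1.66, 1.5 and 2.25 with a Ler mother. Its groups met at 1.5 (log2 -0.27, 95% interval -0.93 to 0.38). Summed over the 18 genes, FPKM was 4.18, 3.25 and 4.67 with a Col mother and 5.87, 4.70 and 5.58 with a Ler mother, which only just separate. Below the level for testing, AT3G23060 read 0, 0 and 0.24 against 0.90, 0.84 and 0.76, and FWA, a homeobox gene, read 0.28, 0.16 and 0.11 against 0.04, 0 and 0.04. These stood apart in opposite directions, at levels where FPKM rests on little signal. Of 13 loci known to differ between the Col and Ler accessions 3 were tested. FLC, a repressor of flowering whose Ler allele is weak, read 8.68, 8.15 and 6.22 with a Col mother and 16.8, 18.7 and 8.12 with a Ler mother. Ler-mother replicates 1 and 2 were high and replicate 3 lay among the Col-mother values (log2 -0.77, 95% interval -1.49 to -0.05, limma adjusted p = 1). ER, which carries a mutation in Ler, read 17.9, 13.5 and 16.0 against 13.2, 13.6 and 9.97, with overlap. HUA2, a regulator of flowering time, read 2.3, 2.83 and 3.3 against 3.59, 3.76 and 1.98, also with overlap. The disease resistance genes RPP1, RPP4, RPP5, RPP8 and SNC1 stayed below an FPKM of 1 in all 6 libraries. The glucosinolate pathway genes AOP3, MAM1 and MAM3 (listed as IMS2) and the genes ESP and ESM1 were at 0 in all 6 libraries.

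In the remaining lists, the counts of members that separated the crosses are to be read against the same 4.26 and 3.34% of all tested genes. Hypoxia genes had a median of -0.50 and stress and wounding genes 0.46, and in both lists 0 genes separated the crosses. Both directions rested on single libraries. The hypoxia median was 0.17 without Col-mother replicate 2, -0.08 without Ler-mother replicate 1 and -0.96 without Col-mother replicate 1. The stress median was -0.20 without Col-mother replicate 3, and without Col-mother replicate 2 it was 0.83 with 6 of 14 genes separated (14.3% of all genes). Of 15 tested respiration genes the median was 0.06, and NDA1, an alternative NADH dehydrogenase of mitochondria, read 3.37, 3.5 and 3.12 with a Col mother and 1.05, 0.97 and 1.14 with a Ler mother. Replicates of each cross were nearly equal and the groups lay apart (log2 1.08, SE 0.27, limma adjusted p = 1). Its relative NDA2 had Ler mother above by little, at 5.69, 5.73 and 4.70 against 5.93, 5.97 and 5.81 (log2 -0.12, SE 0.23, limma adjusted p = 1). Of 19 tested clock genes LHY had Col mother above and ZTL had Ler mother above, with a list median of -0.18. Of 11 reference genes 2, ACT8 and AT4G34270, had Ler mother above, and their median was -0.03. In the sugar and amino acid transport list, AAP6, an amino acid permease, was the 1 of 9 tested genes with Col mother above. Of 8 tested genes of seed storage and maturation 0 separated, and LEC1, a master regulator of embryo identity, read 419, 340 and 302 against 285, 252 and 393.

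Beyond the lists, the genes with the lowest p were named by a rule added after 0 genes had been called, the 8 lowest in each direction with a mean FPKM of at least 10, the listed histones aside. All 16 separated the crosses, and all had a limma adjusted p of 0.987 or 1. AN3, a co-activator that promotes cell proliferation in leaves, read 107, 83.8 and 74.0 with a Col mother and 57.9, 49.3 and 55.6 with a Ler mother (log2 0.68, SE 0.16). TIFY8, a TIFY domain gene, read 48.8, 38.9 and 38.9 against 21.3, 23.9 and 29.9. The others higher with a Col mother were HMGA and AT1G06760, given above, and AT1G65370, AT3G12830, AT5G17090 and SK 11, a shaggy-related kinase gene. Higher with a Ler mother was DER1, a derlin of protein quality control at the endoplasmic reticulum, at 58.2, 39.4 and 41.4 against 88.7, 83.5 and 61.5 (log2 -0.74, SE 0.20). EDA14 differed little but evenly, at 148, 144 and 143 against 186, 193 and 185 (log2 -0.37, SE 0.10). SEN1, a tRNA splicing endonuclease gene, read 8.89, 8.87 and 11.6 against 17.41, 16.6 and 19.0. UBQ14, AT3G56250, AT5G55180, AT4G23885 and AT1G24800 were the other 5.

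Of these, AT1G24800 is 1 of 5 near-identical F-box genes, and its difference was not that of the family. It read 10.97, 22.2 and 13.8 with a Col mother and 34.4, 33.9 and 28.5 with a Ler mother. Summed over AT1G24800, AT1G24881, AT1G25055, AT1G25150 and AT1G25211, however, FPKM was 168, 163 and 152 against 163, 163 and 152. The sums were alike in the 2 crosses, and the division of reads among the copies is uncertain. The division is also uncertain for AT5G50630, which stood at 0 in all Col-mother libraries and at 3.76, 6.62 and 2.73 with a Ler mother. It shares all its 50-base words with AT5G50520, and the pair summed to 7.92, 1.17 and 5.39 against 8.72, 6.62 and 12.5. These sums overlapped, with a higher mean with a Ler mother. AT5G14602, annotated as a methyltransferase-like protein, was the only locus of 32399 at 0 in every Ler-mother library and at 1 or above in every Col-mother library, at 1.1, 1.61 and 5.56 (limma adjusted p = 1).

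By size rather than p, the largest differences were also named after the values were seen. NAS4 and NAS2, nicotianamine synthases of metal transport, led with a Col mother. NAS4 read 36.9, 2.47 and 12.8 against 0.34, 0.33 and 1.76 (log2 2.84, 95% interval 1.11 to 4.57, limma adjusted p = 1), and NAS2 read 40.6, 11.2 and 25.0 against 4.35, 0.33 and 9.80. In both, the groups separated but Col-mother replicate 1 was far above replicate 2. DRNL, an embryo patterning gene related to DRN, read 37.6, 4.21 and 19.4 against 2.04, 0.62 and 4.89, with overlap. Towards the Ler mother the leading genes were APX2, AT5G48570, HSA32, GolS1 and AT4G33660, and none of these separated the crosses: each was high in Ler-mother replicates 1 and 2, and replicate 3 was within the Col-mother range.

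The last question was where the effect of the mother in the embryo proper differed from that in the apical cell and the suspensor, tested as the difference of the differences over 12 libraries each. Against the apical cell limma called 16 of 16482 genes (0.0971%), 14 with a more positive and 2 with a more negative effect in the embryo proper. Against the suspensor it called 0 of 16504 (0%), with 1219 genes at an unadjusted p under 0.05 and a lowest adjusted p of 0.0569. Without suspensor Ler-mother replicate 1 it called 64, and with all 24 libraries in the fit 47. The labels of that library give Nextera XT or NEBNext as its kit, those of the other 11 libraries in the contrast Nextera XT, and the part of the kit was not tested. The apical cell count was 4 without apical cell Ler-mother replicate 1. The genes named are those with the largest differences among the called.

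The 5 positive ones were high in apical cells with a Ler mother and at 8.81 or below in the other apical cell and embryo proper libraries. ANNAT1, a calcium-binding annexin, read 255, 138 and 123 there, at most 0.32 in apical cells with a Col mother, and at most 0.14 in the embryo proper of either cross (log2 7.29, SE 0.54, limma adjusted p = 4.21e-05). PS2, an inorganic pyrophosphatase induced by phosphate starvation, read 386, 290 and 286 there, 0 to 8.81 in apical cells with a Col mother and 0.28 to 3.32 in the embryo proper (log2 7.38, SE 0.93, limma adjusted p = 0.00421). HIR2, a membrane-associated protein, was at 0 in all 6 embryo proper libraries and at 80.3, 39.6 and 92.8 in apical cells with a Ler mother. AT5G17340 and AT1G23110 showed the same arrangement.

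The 2 negative ones were lower in apical cells with a Ler mother. AT1G01630, a Sec14p-like lipid transfer protein, read 134, 117 and 125 in the embryo proper with a Col mother and 116, 112 and 151 with a Ler mother, which overlap. In the apical cell it read 41.4, 51.5 and 38.7 against 8.18, 3.48 and 8.05, which do not (log2 -2.63, SE 0.36, limma adjusted p = 0.0103). BT5, a BTB and TAZ domain gene, read 134, 64.2 and 89.2 against 8.96, 8.75 and 13.9 in the apical cell, and 3.27 to 8.79 in the embryo proper (log2 -3.14, SE 0.53, limma adjusted p = 0.0433). In all 7 genes the cross difference lay in the apical cell, and the embryo proper libraries of the crosses overlapped or stood at 0.

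**Figure D5:**
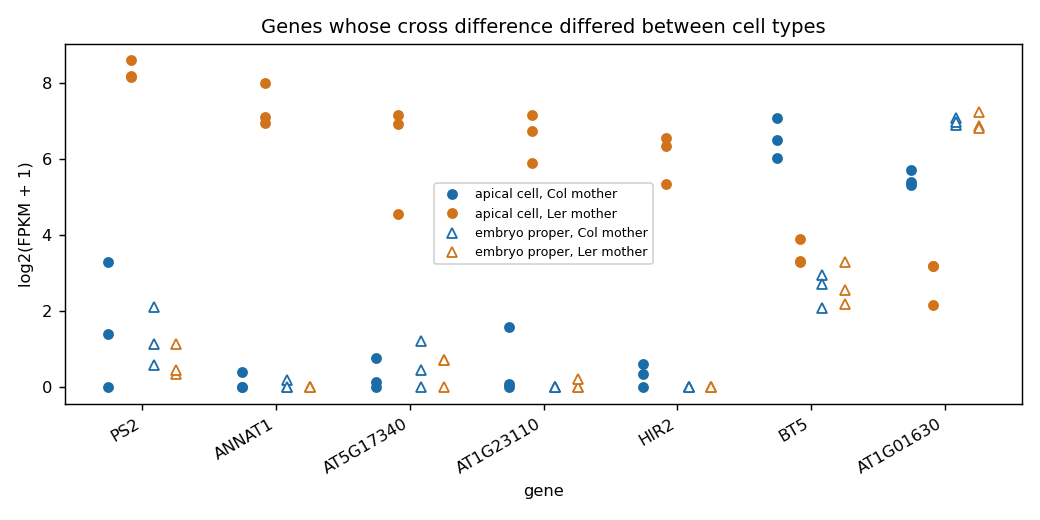
Level of the 7 named genes (vertical axis, log2(FPKM + 1)) in each library of the apical cell (filled circles) and embryo proper (open triangles), with a Col mother in blue and a Ler mother in orange. The orange circles stand apart from the blue circles in every gene, while the triangles of the 2 crosses lie together.

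Among the 4 cell types, the embryo proper had the smallest share of large differences and the smallest spread between replicates. In fits of 6 libraries each, limma called 64 of 15007 genes between crosses in the apical cell (0.426%), 451 of 14830 in the basal cell (3.04%) and 0 of 14293 in the suspensor (0%, with 1225 at an unadjusted p under 0.05). The share of genes with an absolute log2 difference of at least 1 was 12% in the apical cell, 28.2% in the basal cell and 25.1% in the suspensor, against 1.23% in the embryo proper. Within a cross, the SD of log2 values over 3 libraries had a median of 0.272 (Col mother) and 0.232 (Ler mother) in the embryo proper, and from 0.434 to 0.836 elsewhere. Both tissues of the later stage thus had 0 calls, the embryo proper with narrow spreads and the suspensor with wide ones.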

How the data were processed

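RNA-seq libraries of hybrid embryos were made with SMART-Seq amplification from bead-captured mRNA and, for the 6 embryo proper libraries, Nextera XT, per the labels' protocols. The authors deposited 1 table of FPKM values per library, rounded to 2 decimals. TopHat2 2.1.1, RSEM and genome TAIR10 are named in the submitters' processing notes, and the annotation and filters are not given in the sources used here. FPKM carries no counts, so no counting interval could be given, and amplification of little RNA adds spread. Values are relative within a library.

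A gene was tested if 3 or more libraries reached an FPKM of 1, on log2(FPKM + 1), with limma 3.58.1 in R 4.3.3 (eBayes with trend, Benjamini-Hochberg over all tested genes, threshold 0.05), in the 6 embryo proper libraries or, for the contrasts with apical cell and suspensor, in 12. The code was tested on simulated data. Symbols come from RefSeq's gene table (TAIR10.1), which held 31912 of 32399 loci by locus tag. Histone class was checked by translating the coding sequences of that genome. Lists and members were chosen with earlier results of these data known, and the histone family, the promoter motifs and the lists of lowest p and largest difference after the values of this comparison were seen. By the rule for named genes, the 15 largest called in each direction would be named, which gave none, with the 5 largest called in each direction from the 2 contrasts where a group mean reached an FPKM of 10. The rule also took the 2 most abundant tested members of each list and every locus known to differ between Col and Ler. One gene that the rule names is not reported here. Members named because they separated the crosses, or to show a role, were chosen after their values were seen. Alternatives were other pseudocounts, filters, scalings, weights, a replicate block, all 24 libraries and leaving out each library.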

Additional observations from a re-analysis of the deposited data

Results flagged for a closer look

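For 7 genes the difference between the crosses itself differed between embryo proper and apical cell, by the test of the difference of differences. The values are log2 differences, embryo proper minus apical cell, of Col mother minus Ler mother. They were 7.38 for PS2, 7.29 for ANNAT1, 5.99 for AT5G17340, 5.96 for AT1G23110, 5.75 for HIR2, -3.14 for BT5 and -2.63 for AT1G01630. In each, the libraries of the crosses were apart in the apical cell and not in the embryo proper. Groups of 3 libraries are too small for a check of single outlying libraries, so none was made.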

How the results depend on the processing

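The count of 0 genes between the crosses in the embryo proper held under other pseudocounts, filters and scalings, without the mean-variance trend, with all 24 libraries in the fit, and with a needed log2 change of 1. With library weights limma called 2 genes, HTA13 and HTA6 (adjusted p = 0.0304 each), and the lowest adjusted p of a histone gene over the alternatives ranged from 0.0304 to 1. Leaving out 1 library gave 0 to 5 genes, the 5 without Ler-mother replicate 3. The contrast with the apical cell gave 27 genes with library weights and, leaving out 1 library, 4 to 24. It was 4, 6 and 9 without apical cell Ler-mother replicates 1, 2 and 3, 8 and 7 without embryo proper Col-mother replicates 1 and 3, and 10 without embryo proper Ler-mother replicate 1 or 2. The contrast with the suspensor gave 47 genes with all 24 libraries in the fit and, leaving out 1 library, 0 to 64. It was 64, 4 and 13 without suspensor Ler-mother replicates 1, 2 and 3, 2 without suspensor Col-mother replicate 2 or 3, and 6 without embryo proper Col-mother replicate 1. The cause was not tested. With a replicate block the counts were 0, 15 and 0. Deviations of same-numbered libraries correlated at -0.006, 0.33 and 0.046, so the numbers were not taken to pair the libraries. Of 1624 gene values of named and histone genes under alternatives none reversed, and 38 changed sign without a call. Among the 7 genes of the apical cell contrast, 22 of 120 values fell short of the threshold, and none reversed. The counts of list members that separated the crosses without a library were added after seeing the data. Depth is unknown, and genes with an FPKM under 10 had intervals within 2-fold in 54.6% of cases.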
